A study of Mus musculus with 12 samples.

Results

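The genes described here are 10 imprinted growth genes, *Snrpn*, *Ndn*, *Peg3*, *Plagl1*, *Dlk1*, *Igf2*, *Meg3*, *H19*, *Cdkn1c* and *Grb10*, taken by name out of 54193 genes measured in the substantia nigra pars compacta (SNpc) of young mice. The estimated reads of the transcripts of each gene were summed in each of 12 libraries and scaled for depth. All 10 genes passed the filter on low counts, and 18831 genes were tested. The study compared mice hemizygous for *En1* with wild-type (WT) controls in the strains SwissOF1 (OF1) and C57Bl/6j (C57), to ask how genetic background alters the early response of the SNpc to the loss of 1 *En1* copy. Each group held 3 mice, all 1 week old and labelled male: OF1 WT (libraries SW31, SW7 and SWG), OF1-En1+/- (SW21, SW22 and SWB), C57 WT (C5710, C572S and C5743) and C57-En1+/- (C5713, C572 and C575). One *En1* copy of the hemizygous mice is a null allele made by inserting *lacZ*, and the mice came from WT females mated with hemizygous males. The SNpc of each mouse was captured by laser from sections stained with cresyl violet, so each library is a mixture of the cells in that area.

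Imprinted genes are transcribed mainly from the copy inherited from 1 parent, under the control of DNA methylation set in the egg or the sperm. Many act on growth: genes expressed from the paternal copy, such as *Igf2* and *Dlk1*, tend to promote it, and genes expressed from the maternal copy, such as *Cdkn1c* and *H19*, tend to restrain it. Several stay on in neurons after birth, and *Grb10* is expressed from the maternal copy in most tissues but from the paternal copy, and from other start sites, in neurons. Reads were counted here without regard to the parental copy, so each level is the total of both copies.

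For *Grb10*, *Snrpn* and *Meg3*, transcripts that begin at separate sites each carried reads in the SNpc. Reads of *Igf2* were also split over transcripts with separate starts, and its sequences are not printed. Shares of reads are described later, and the part of the sequence in them was not tested. The sequences just upstream of such sites in *Grb10*, *Snrpn* and *Meg3* are shown here. They are RefSeq windows of 300 bases (250 before and 50 after a start), placed on GRCm39 by exact match, and only the bases before the start are printed, 5′ to 3′ on the strand of the gene and with CG dinucleotides in capitals. Those of *Grb10* and *Snrpn* end before the first exon of the transcript named, and the window of Meg3-209 lies inside the last exon of Meg3-205, a noncoding transcript. In this order, they lie at chr11:11987421-11987670 (minus strand), chr11:11978115-11978221 (minus), chr7:59654948-59655197 (minus), chr7:59790015-59790223 (minus), chr12:109506629-109506878 (plus) and chr12:109511031-109511280 (plus).
Grb10, upstream of Grb10-201: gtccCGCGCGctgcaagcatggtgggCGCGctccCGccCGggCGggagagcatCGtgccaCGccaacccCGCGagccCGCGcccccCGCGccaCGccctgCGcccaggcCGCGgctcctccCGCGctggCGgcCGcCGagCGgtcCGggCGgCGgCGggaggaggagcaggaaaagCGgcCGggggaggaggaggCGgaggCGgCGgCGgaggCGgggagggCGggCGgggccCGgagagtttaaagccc
Grb10, upstream of Grb10-203: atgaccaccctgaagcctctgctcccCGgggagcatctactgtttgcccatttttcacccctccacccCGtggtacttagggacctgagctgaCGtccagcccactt
Snrpn, upstream of Snrpn-201: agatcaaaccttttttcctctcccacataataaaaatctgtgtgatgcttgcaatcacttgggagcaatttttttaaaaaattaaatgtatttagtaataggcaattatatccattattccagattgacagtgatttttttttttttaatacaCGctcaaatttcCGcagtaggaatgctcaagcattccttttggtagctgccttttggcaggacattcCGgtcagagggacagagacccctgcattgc
Snrpn, upstream of Snrpn-202: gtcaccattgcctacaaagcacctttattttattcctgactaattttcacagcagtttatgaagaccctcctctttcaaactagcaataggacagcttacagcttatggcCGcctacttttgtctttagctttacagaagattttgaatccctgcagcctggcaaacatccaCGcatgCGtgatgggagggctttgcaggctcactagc
Meg3, upstream of Meg3-202 and its neighbours: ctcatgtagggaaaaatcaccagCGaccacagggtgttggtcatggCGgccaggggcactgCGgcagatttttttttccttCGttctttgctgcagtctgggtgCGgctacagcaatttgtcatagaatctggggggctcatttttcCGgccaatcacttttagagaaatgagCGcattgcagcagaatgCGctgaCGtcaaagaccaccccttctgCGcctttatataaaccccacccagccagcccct
Meg3, upstream of Meg3-209: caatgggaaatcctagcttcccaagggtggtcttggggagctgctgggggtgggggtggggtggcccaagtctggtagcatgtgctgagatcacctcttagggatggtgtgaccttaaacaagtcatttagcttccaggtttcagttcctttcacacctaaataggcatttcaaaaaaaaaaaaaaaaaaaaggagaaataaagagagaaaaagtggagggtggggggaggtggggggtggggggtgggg

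The starts of *Grb10* differ most in these letters. The whole window at Grb10-201 held 45 CG dinucleotides, more than 98.1% of all 32851 mouse windows, against 9 in the window at Grb10-203, which is 143 bases from the start of that transcript. The window at the first *Meg3* start held 13 CG and the one at Meg3-209 held 1. The windows of *Snrpn* at Snrpn-201 and Snrpn-202 were nearer the median of 7, with 7 and 3. Other windows of *Snrpn*, not printed, held 2 and 4. In all, 16 windows of 8 of the genes were searched on both strands, which leaves *Cdkn1c* and *H19* unsearched here. TATAAA was in 2 of the 16 windows and in 13.6% of all windows. TGCCGC, the letters bound by the imprint-keeping protein ZFP57 when methylated, was in 5 of the 16 and in 11.6% of all windows. These 5 include the windows at Grb10-201, Snrpn-201 and the first *Meg3* start. Of these named matches, only that at the first *Meg3* start lies wholly within the printed bases. A match is a description of the letters and no evidence of binding.

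Libraries held between 13538864 and 168741283 estimated reads. The C57 WT libraries were the deepest, at 61433970 to 168741283 reads, against 13538864 to 37754338 in the other groups. *En1* does not serve as a check of genotype: it was at 0.0271 to 33.3 CPM (reads scaled for depth) in the 6 WT libraries, and in the hemizygous libraries it was at 21.5 CPM in SW22, 0.292 in C572 and 0 in the other 4. The libraries SW22 and C572S stand apart, with 12251.8 and 19485.2 CPM summed over 8 dopaminergic neuron markers against 44.5 to 414.9 in the other 10, although every library is labelled substantia nigra. *Th*, the rate-limiting enzyme of dopamine synthesis, was at 2672.8 CPM in SW22, 3787.5 in C572S and 0.274 to 45 elsewhere. The female-specific transcript *Xist* was at 41.4 CPM in C572 and at most 1.08 in the other 11, so for C572 either the sex given or the identity of the mouse is uncertain. In such bulk samples, fewer cells of a type and less RNA per cell cannot be told apart.

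The 10 genes spanned nearly the whole range of expression of the genes tested in these libraries. Their levels are compared per length, as TPM, which divides the reads by transcript length and scales each library to the same total, with medians over the 12 libraries. *Snrpn*, which encodes the neuronal spliceosome protein SmN, was highest at 1671.7 TPM, above 99.6% of the genes tested, and *Ndn*, which encodes the MAGE-family protein necdin of postmitotic neurons, followed at 574.8 TPM. *Snrpn* was above *Ndn* in 12 of 12 libraries and their ranges did not overlap. The noncoding RNA *Meg3* (52.1 TPM) and the zinc finger gene *Peg3* (48.5 TPM) came next and were not separated, with *Meg3* above *Peg3* in 8 of 12 libraries. *Ndn* exceeded *Meg3* in 12 of 12 libraries, again with no overlap.

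The adaptor gene *Grb10* was at 9.82 TPM and was not separated from *Dlk1*, being above it in 5 of 12 libraries. *Dlk1* (6.59), *Plagl1* (6.38), *Cdkn1c* (5.34) and *Igf2* (4.23 TPM) lay close together, and their ranges overlapped from neighbour to neighbour. *Grb10* was below *Peg3* in 12 of 12 libraries, although their ranges over the libraries touched. *H19*, a noncoding RNA of the embryo that is silenced in most tissues after birth, was last at 0.145 TPM, above only 6.72% of the genes tested, and had reads in 7 of 12 libraries. *Igf2* exceeded *H19* in 12 of 12 libraries.

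**Figure D1:**
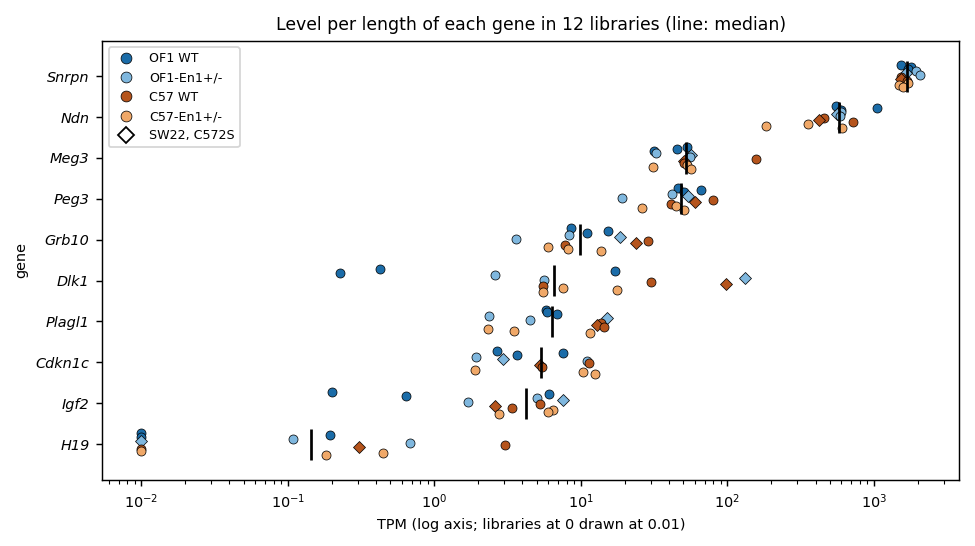
The x axis gives TPM on a log scale and each row is a gene, with 1 point per library coloured by group (diamonds for SW22 and C572S) and a line at the median. *Snrpn* (1473.7 to 2079.7 TPM) stands clear of *Ndn* (183.9 to 1044.2 TPM), whereas *Dlk1* is spread from 0.228 to 131.1 TPM and 5 libraries of *H19* are at 0.

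The genes also differed in how far they varied between libraries. *Snrpn* had an SD of 0.23 on the log2 CPM scale over the 12 libraries, larger than that of only 6.24% of the genes tested, and its highest library was 1.69 times its lowest. *Dlk1* had an SD of 2.66, larger than that of 98.1% of genes, and its highest library was 459 times its lowest. *Peg3* (0.50), *Meg3* (0.57) and *Ndn* (0.60) were near the middle of all genes, and *Grb10* (0.79), *Plagl1* (0.90), *Cdkn1c* (0.94) and *Igf2* (1.13) were above it.

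Close relatives and neighbours on the chromosome were at other levels. *Snrpn* exceeded *Snrpb*, its paralog made in all cells (211.1 TPM), in 12 of 12 libraries. *Ndn* and the related MAGE gene *Maged1* (550.8 TPM) were alike, *Ndn* being higher in 5 of 12, whereas *Magel2*, the neighbour of *Ndn*, was at 5.24 TPM. *Cdkn1c*, which encodes the cyclin-dependent kinase inhibitor p57, was below *Cdkn1a* (133.1 TPM) in 12 of 12 libraries and above *Cdkn1b* (0.608 TPM) in 12 of 12. *Plagl1* exceeded *Plagl2* (0.398 TPM) in 12 of 12, and *Igf2* exceeded *Igf1* (7.93 TPM) in 3 of 12. In the domain of *Dlk1* and *Meg3*, the noncoding RNA *Rian* was at 34.7 TPM and *Mirg* at 1.75 TPM.

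No gene of the 10 passed the threshold (edgeR, adjusted p under 0.05) in any of 7 comparisons. Over all genes tested, edgeR called 0% between OF1-En1+/- and OF1 WT, 0% between C57-En1+/- and C57 WT, 0.982% between OF1 WT and C57 WT, 0.897% between OF1-En1+/- and C57-En1+/-, 0% for the interaction of genotype and strain, 0% for genotype averaged over the strains and 1.99% for strain averaged over the genotypes. Of the 10 genes, 0 had an unadjusted p under 0.05 by edgeR in each comparison, beside 7.17 to 11.1% of all genes tested. Limma voom with quality weights called 0 of the 10. Of the 18831 genes it called 0, 0, 254, 160, 0, 0 and 450 in the same order of comparisons. DESeq2 called 0 of the 10 as well, beside 1.14%, 0.388%, 2.49%, 2.42%, 0.239%, 1.37% and 3.7% of all genes in the same order of comparisons. The smallest adjusted p of each comparison lay between 0.522 and 0.835 with edgeR. The comparisons share libraries, so they are not independent of each other. A p above the threshold does not show that the groups are alike, and the intervals given with the values below state what size of difference these 3 mice per group leave possible.

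Taken over the 9 genes other than *H19*, whose few reads leave its fold change unfit to report, the median log2 fold change of hemizygous against WT mice was 0.09 in OF1 and -0.26 in C57, beside medians of -0.01 and 0.00286 over all genes tested. The estimate was higher in the hemizygous mice for 6 of 9 genes in OF1 and for 3 of 9 in C57. The direction in OF1 rested on single libraries: without SW22 it was 3 of 9 genes with a median of -0.35, without SW22 and C572S 3 of 9 with -0.36, and without SWB, SWG or SW31 4 of 9 with medians of -0.01, -0.03 and 0.00. With 1 library left out the median in C57 stayed below 0 but ran from -0.41 (without C5743) to -0.07 (without C572). For OF1 against C57 mice over both genotypes the median was -0.29, with 7 of 9 estimates lower in OF1, beside a median of -0.03 over all genes. It ran from -0.43 (without SW7) to -0.09 (without C575) with 1 library left out.

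**Figure D2:**
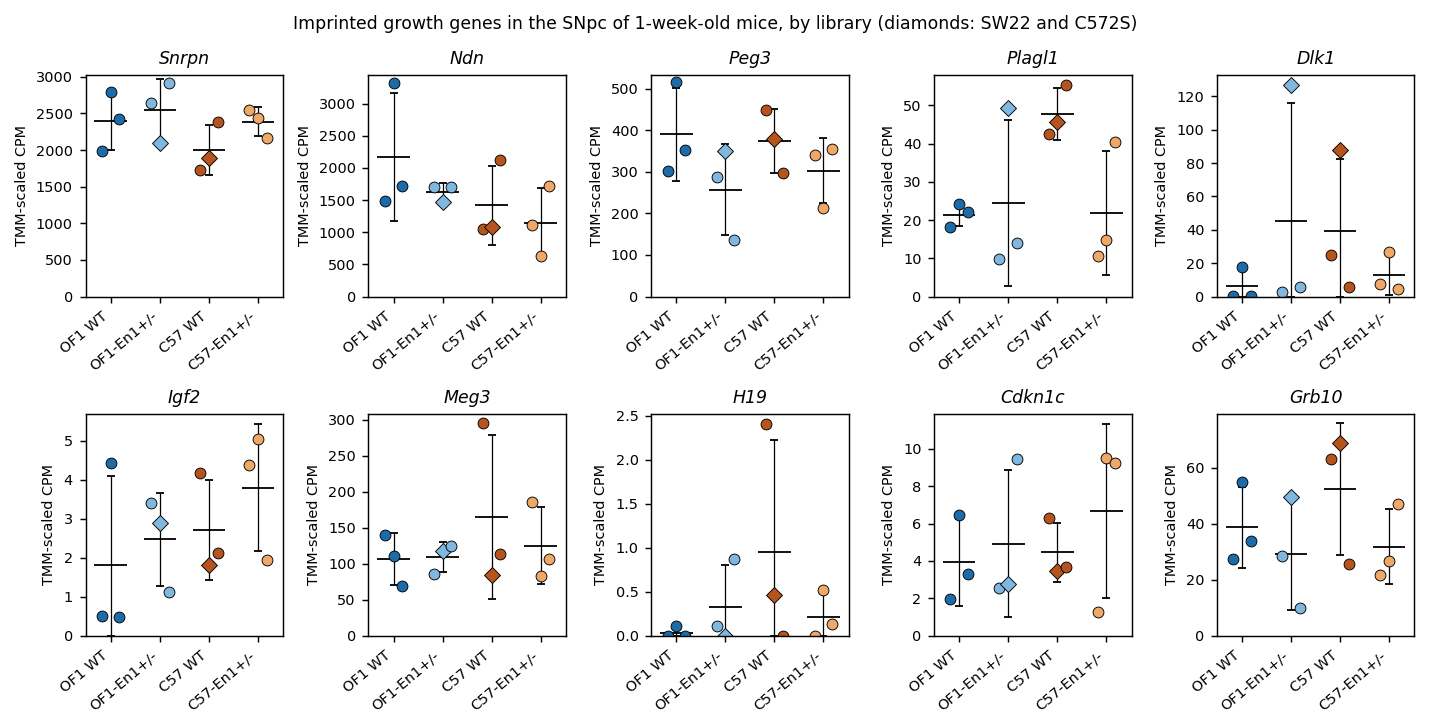
Each panel is a gene, with TMM-scaled CPM on a linear y axis from 0 and 1 point per library in each group; lines and bars are the mean and SD (not drawn below 0), and diamonds are SW22 and C572S. The groups overlap in nearly all panels; the 3 C57 WT libraries of *Plagl1* (42.4 to 55.4 CPM) lie above the OF1 WT and the C57-En1+/- libraries, and the diamonds are the highest points of *Dlk1*.

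*Snrpn* and *Ndn* lie in the same imprinted region of chromosome 7 and are expressed from the paternal copy. *Snrpn* (ENSMUSG00000102252, chr7:59630427-59820763) was at 1993, 2789 and 2421 CPM in OF1 WT and at 2642, 2093 and 2911 CPM in OF1-En1+/- mice. In C57 WT mice it was at 1724, 1895 and 2376 CPM, and in C57-En1+/- mice at 2549, 2442 and 2162 CPM. All groups overlapped within a narrow band. The log2 fold change of hemizygous against WT mice was 0.09 (95% interval -0.33 to 0.51) in OF1 and 0.32 (-0.10 to 0.73, adjusted p = 0.675) in C57, the tightest intervals among the 10 genes.

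*Ndn* (ENSMUSG00000033585, chr7:61995473-62000010) was at 1486, 3318 and 1716 CPM in OF1 WT and at 1711, 1478 and 1703 CPM in OF1-En1+/- mice. It was at 1048, 1084 and 2130 CPM in C57 WT and at 1105, 625 and 1715 CPM in C57-En1+/- mice. SW7 was the highest library and C572 the lowest, and the OF1 and C57 libraries overlapped. Over both genotypes *Ndn* was 0.59 higher in OF1 than in C57 mice on the log2 scale (SE 0.277, interval -0.02 to 1.19, adjusted p = 0.606). In hemizygous mice its log2 fold change was -0.41 (-1.27 to 0.44) in OF1 and -0.26 (-1.11 to 0.60) in C57. In OF1 it turned to 0.04 without SW7, and in C57 to 0.14 without C5743 and 0.03 without C572.

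Nearly all *Snrpn* reads were assigned to Snrpn-201. The other annotated transcript in the files, Snrpn-202, starts far upstream, at the window at chr7:59790015-59790223 printed earlier, and took 2.94 to 11.0% of the reads with a median of 6.05%. C572S had the lowest and C572 the highest share, and the remaining 10 libraries held 4.70 to 7.09%. *Snurf*, which is read from the same transcripts, was listed at 0 in all 12 libraries.

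*Mkrn3*, a paternally expressed neighbour of *Ndn* that encodes a zinc finger protein restraining puberty, is no member of the 10 but belongs to a list of 44 other imprinted genes. Its 6 WT libraries lay at 67.6 to 93.0 CPM and its 6 hemizygous libraries at 34.8 to 55.2 CPM, without overlap. The log2 fold change of hemizygous against WT mice over both strains was -0.75 (SE 0.136, interval -1.05 to -0.45), with an adjusted p of 0.286 by edgeR and 0.000432 by DESeq2. It was -0.63 in OF1 (adjusted p = 0.453 by edgeR and 0.117 by DESeq2) and -0.87 in C57 (adjusted p = 0.531 by edgeR and 0.0192 by DESeq2).

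*Peg3* (ENSMUSG00000002265, chr7:6706882-6733468) encodes a paternally expressed zinc finger protein. It was at 302, 515 and 353 CPM in OF1 WT, 287, 349 and 136 CPM in OF1-En1+/-, 449, 380 and 296 CPM in C57 WT and 341, 213 and 354 CPM in C57-En1+/- mice. The estimate was lower in the hemizygous mice of both strains, with a log2 fold change of -0.59 (-1.34 to 0.15, adjusted p = 0.629) in OF1 and -0.26 (-1.0 to 0.48) in C57, and the groups overlapped in both. SWB and C572 were the lowest libraries. Over both strains it was -0.43 (-0.95 to 0.10, adjusted p = 0.522).

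*Usp29*, which lies beside *Peg3* and is expressed from the paternal copy too, was at 92.4 to 126.4 CPM in the 6 WT and at 34.9 to 83.7 CPM in the 6 hemizygous libraries. These did not overlap, and the log2 fold change over both strains was -0.72 (-1.17 to -0.26) with an adjusted p of 0.35 by edgeR and 0.0775 by DESeq2. *Mkrn3* and *Usp29* were the 2 of 39 tested genes of that list whose WT libraries were all above all hemizygous libraries. Of all genes tested, 0.515% were lower in this way and 0.743% lay apart in either direction, and 0 of the 10 imprinted growth genes did.

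*Plagl1* (ENSMUSG00000019817, chr10:12936248-13007438) encodes a paternally expressed zinc finger protein that slows the cell cycle and regulates other imprinted genes. It was at 18.1, 24.2 and 22 CPM in OF1 WT and at 9.74, 49.4 and 14.1 CPM in OF1-En1+/- mice. It was at 42.4, 45.6 and 55.4 CPM in C57 WT and at 10.5, 14.7 and 40.4 CPM in C57-En1+/- mice. The C57 WT libraries were above all C57-En1+/- and all OF1 WT libraries, and SW22 and C575 reached or neared their level. Across the genes tested, 7.91% lay lower without overlap in the first of these contrasts (hemizygous below WT within C57) and 8.51% in the second (OF1 WT below C57 WT). In either direction the shares were 14% and 14.7%, and *Plagl1* was the 1 of the 10 genes in each. Within OF1, between the hemizygous groups, and for strain over both genotypes, 0 of the 10 were apart, beside 15.4%, 13.1% and 2.38% of all genes.

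For *Plagl1* the log2 fold change was -1.09 between C57-En1+/- and C57 WT mice (SE 0.575, interval -2.34 to 0.17, adjusted p = 0.626) and -1.11 between OF1 WT and C57 WT mice (SE 0.576, interval -2.37 to 0.15, adjusted p = 0.648). Without C575 the first was -1.84 (adjusted p = 0.256), without C5713 it was -0.76 (adjusted p = 0.799) and without C572 it was -0.88 (adjusted p = 0.975). In OF1 mice the fold change was 0.19 (-1.05 to 1.44), and it turned to -0.86 without SW22 and C572S. The interaction of genotype and strain was -1.28 (-3.04 to 0.49, adjusted p = 0.778) and -0.29 without those libraries. Between the C57 groups the summed blood markers also differed without overlap, at 178.2 to 219.0 CPM in WT and 355.1 to 688.4 CPM in hemizygous mice, with 0 of the 3 markers at 0 in any library. Between OF1 WT and C57 WT mice the markers of proliferating cells lay apart too, at 21.4 to 50.9 and 58.3 to 103.6 CPM, as did the summed dopaminergic markers, at 52.5 to 111.4 and 115.3 to 19485.2 CPM, and the astrocyte markers. The part of these cells, or of the greater depth of the C57 WT libraries, in the level of *Plagl1* was not tested.

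*Dlk1* and *Meg3* lie next to each other on chromosome 12, where *Dlk1* is expressed from the paternal and *Meg3* from the maternal copy. *Dlk1* (ENSMUSG00000040856, chr12:109418749-109429262) encodes a membrane protein related to the Notch ligands. It was at 0.367, 17.8 and 0.276 CPM in OF1 WT and at 2.90, 126.7 and 5.95 CPM in OF1-En1+/- mice. It was at 24.6, 87.9 and 5.57 CPM in C57 WT and at 7.40, 26.7 and 4.64 CPM in C57-En1+/- mice. SW22 and C572S, the libraries rich in dopaminergic transcripts, were the highest by more than 3 times, and all groups overlapped.

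The log2 fold change of *Dlk1* was 2.86 (SE 1.83, interval -1.21 to 6.92, adjusted p = 0.675) in OF1 and -1.53 (SE 1.73, interval -5.39 to 2.33, adjusted p = 0.844) in C57 mice. Without SW22 and C572S these were -0.49 and -0.23. The interaction of genotype and strain (C57 minus OF1) was -4.39 with all libraries (interval -9.98 to 1.20, adjusted p = 0.75). It was 0.26 without both. Apart from these libraries *Dlk1* was not low everywhere: C5710, C572 and SW7, with 24.6, 26.7 and 17.8 CPM, had 115.3, 414.9 and 111.4 CPM of the dopaminergic markers. The sum in C572 did not rest on the markers *Th* and *Slc6a3*, which were at 4.84 and 0.13 CPM there. In C5743 they were at 45.0 and 100.4 CPM. SW31 and SWG, in which *Dlk1* rested on 5 and 8 reads, had 52.5 and 56.0 CPM of these markers. Other libraries ran the other way: C5743 and SWB, with 210.4 and 171.9 CPM of the markers, had 5.57 and 5.95 CPM of *Dlk1*, and C5713, with the lowest marker sum of 44.5 CPM, had 7.40 CPM. The part of dopaminergic content in the level of *Dlk1* was not tested.

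**Figure D3:**
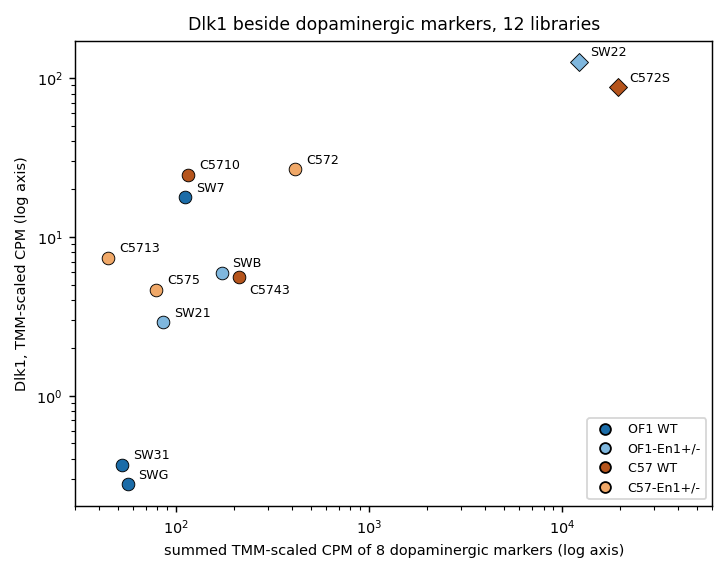
The x axis gives the summed CPM of 8 dopaminergic neuron markers and the y axis the CPM of *Dlk1*, both on log scales, with 1 point per library coloured by group. SW22 (126.7 CPM of *Dlk1*) and C572S (87.9 CPM) lie far to the right of the other 10 libraries, among which *Dlk1* runs from 0.276 to 26.7 CPM.

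Of the Notch pathway, 11 listed genes were tested and 0 passed the threshold in any comparison with edgeR or DESeq2. *Dlk2*, the nonimprinted paralog of *Dlk1*, was at 15.6 to 22.8 CPM in OF1 WT and at 6.02 to 8.54 CPM in OF1-En1+/- mice, without overlap, and its log2 fold change was -1.29 (interval -2.18 to -0.40) with an adjusted p of 0.453 by edgeR and 0.117 by DESeq2. Of all genes tested, 7.91% lay lower without overlap in this contrast. Marker sums of other cells moved with it: oligodendrocyte markers were at 635.9 to 1309.0 CPM in OF1 WT and 1692.9 to 3507.4 CPM in OF1-En1+/- mice, and markers of the nearby subthalamic region at 449.9 to 2103.3 and 33.1 to 307.7 CPM. Markers of proliferating cells were at 21.4 to 50.9 and 64.5 to 90 CPM, and the part of these cells in the level of *Dlk2*, or of any other gene compared within OF1, was not tested.

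*Meg3* (ENSMUSG00000021268, chr12:109506877-109538165) is a maternally expressed noncoding RNA. It was at 140, 111 and 68.5 CPM in OF1 WT, 86.2, 118 and 125 CPM in OF1-En1+/-, 296, 84.6 and 114 CPM in C57 WT and 186, 83.4 and 106 CPM in C57-En1+/- mice. C5710 was the highest library and all groups overlapped. Between hemizygous and WT mice the log2 fold change was 0.05 (-0.95 to 1.04) in OF1, -0.35 (-1.35 to 0.65) in C57 and -0.40 (-1.11 to 0.31, adjusted p = 0.912) for OF1 against C57 mice. In C57 it turned to 0.39 without C5710.

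The reads of *Meg3* were divided among 4 main transcripts. Meg3-209, which starts within the gene at the second *Meg3* sequence printed earlier, took 47.8 to 70.3% of the reads, with a median of 55.1%. Meg3-205, from the upstream start, took 13.6 to 28.3%. Meg3-209 is 14548 bases long and Meg3-205 is 1498, so per length the order is the other way: Meg3-205 held 30.2 to 66.6% of the TPM of the gene and Meg3-209 held 7.34 to 18.9%.

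*Igf2*, *H19* and *Cdkn1c* lie near the distal end of chromosome 7. *Igf2* (ENSMUSG00000048583, chr7:142204503-142220694) encodes the insulin-like growth factor 2, a paternally expressed growth factor of the fetus. It was at 0.514, 4.43 and 0.483 CPM in OF1 WT, 3.39, 2.89 and 1.12 CPM in OF1-En1+/-, 4.17, 1.82 and 2.12 CPM in C57 WT and 4.37, 5.04 and 1.95 CPM in C57-En1+/- mice. The groups overlapped, and SW31 and SWG, with 7.35 and 14.1 estimated reads, were the lowest. Its log2 fold change was 0.43 (-1.43 to 2.28) in OF1, 0.54 (-1.29 to 2.38) in C57 and -0.58 (-1.88 to 0.73) for OF1 against C57 mice.

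*H19* (ENSMUSG00000000031, chr7:142129262-142133957), transcribed from the maternal copy downstream of *Igf2*, had 0, 3 and 0 reads in OF1 WT and 2, 0 and 25 reads in OF1-En1+/- mice. It had 177, 27 and 0 reads in C57 WT and 0, 16 and 5 reads in C57-En1+/- mice. Each group held a library at 0, including C5743, the deepest of all, where 0 reads allow at most 0.0192 CPM (3 reads, counting error only). C5710 was highest, at 2.40 CPM. No fold change of *H19* is given, since it rests on so few reads, and it enters no median of the genes.

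*Cdkn1c* (ENSMUSG00000037664, chr7:143012069-143014806), expressed from the maternal copy, was at 1.98, 6.47 and 3.31 CPM in OF1 WT, 2.57, 2.75 and 9.45 CPM in OF1-En1+/-, 6.28, 3.45 and 3.66 CPM in C57 WT and 1.29, 9.49 and 9.25 CPM in C57-En1+/- mice. SWB, C572 and C575 were highest and C5713 lowest, so the hemizygous groups held both ends of the range. Its log2 fold change was 0.33 (-1.29 to 1.95) in OF1 and 0.63 (-0.99 to 2.24, adjusted p = 0.85) in C57. In OF1 it turned to -0.56 without SWB.

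**Figure D4:**
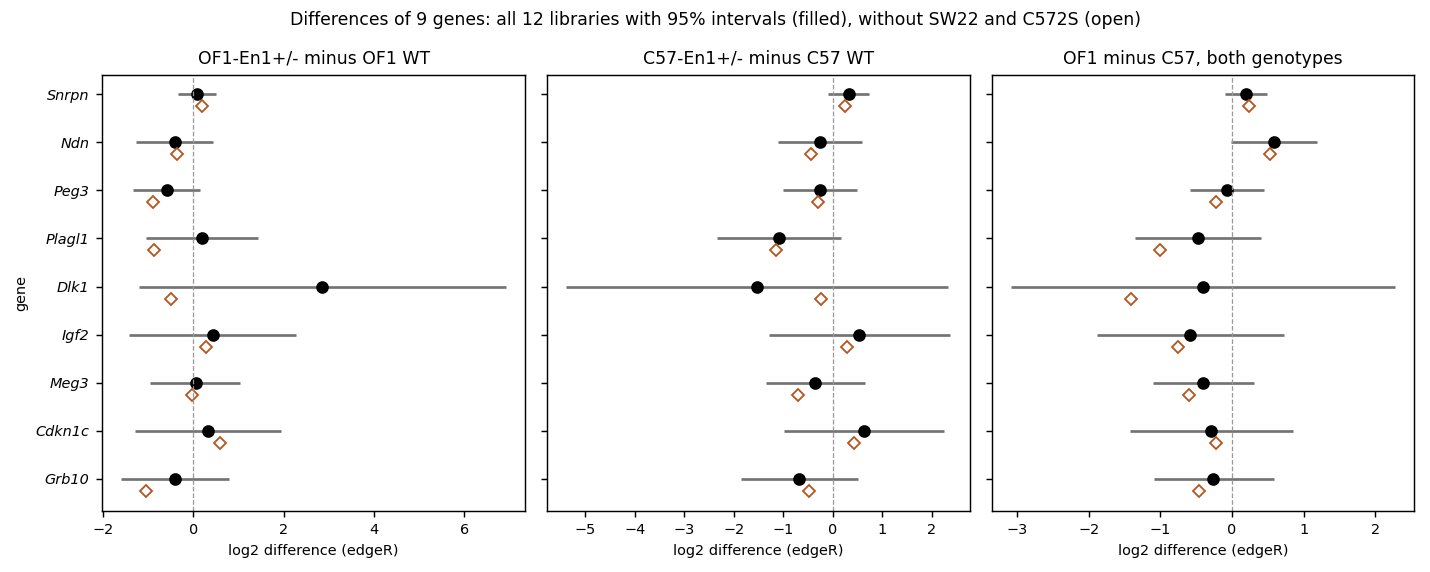
Each panel is a comparison, with the log2 difference on the x axis and a row per gene (*H19* is left out); filled points and lines are the edgeR estimate and its 95% interval from 12 libraries, and open diamonds are the estimate without SW22 and C572S. All intervals cross 0, that of *Dlk1* in OF1 mice reaches from -1.21 to 6.92, and its diamond lies at -0.49.

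*Grb10* (ENSMUSG00000020176, chr11:11880498-11988683) encodes an adaptor that binds the insulin and IGF receptors and damps their signal. It was at 27.4, 54.9 and 33.9 CPM in OF1 WT and at 28.4, 49.4 and 9.77 CPM in OF1-En1+/- mice. It was at 63.1, 68.6 and 25.5 CPM in C57 WT and at 21.8, 26.6 and 47.0 CPM in C57-En1+/- mice. C5710 and C572S were highest, SWB was lowest and all groups overlapped. The log2 fold change of hemizygous mice was -0.41 (-1.59 to 0.78, adjusted p = 0.867) in OF1 and -0.68 (-1.86 to 0.50, adjusted p = 0.757) in C57, and -0.26 (-1.09 to 0.58) for OF1 against C57 mice. In OF1 it turned to 0.01 without SWB.

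The reads of *Grb10* came from transcripts of both start sites, in shares that differed between libraries. Grb10-201, from the upstream start with 45 CG in its window, took 51.7, 47.4 and 56.8% of the reads in OF1 WT and 68.5, 45 and 63.2% in OF1-En1+/- mice. It took 69.9, 71.8 and 67.3% in C57 WT and 22.8, 57.7 and 55.6% in C57-En1+/- mice. Grb10-203, from the downstream start, took nearly all other reads, at 26.7 to 76.7% with a median of 40.7%. The 3 C57 WT libraries were above every OF1 WT and every C57-En1+/- library, while SW21 of OF1-En1+/- lay among them, whereas Grb10-203 took the larger share in C5713 (76.7%), SW22 (53.5%) and SW7 (51.5%).

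The shares of the leading transcript were compared for the 6 of the 10 genes whose normalized counts averaged 50 or more, which leaves out *H19*, and in which that transcript took at most 95% of all reads. In C57-En1+/- against C57 WT mice, 2 of 6 did not overlap, Grb10-201 and Igf2-207, beside 13.8% of 8534 such genes. In OF1 WT against C57 WT mice it was 1 of 6, Grb10-201, beside 14.7%. In OF1-En1+/- against OF1 WT mice it was 0 of 6, beside 10.6%, and in OF1-En1+/- against C57-En1+/- mice 0 of 6, beside 12.9%. Counted in TPM, Grb10-201 held 47.7, 57.5 and 53.4% in C57 WT and 19, 39.1 and 48.2% in C57-En1+/- mice, which overlap, and 43.5, 38.1 and 43.2% in OF1 WT mice, which do not overlap with C57 WT. Reads from exons that both transcripts share are divided between them by estimate, and no test was made. The part of the greater depth of the C57 WT libraries in these shares was not tested.

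**Figure D5:**
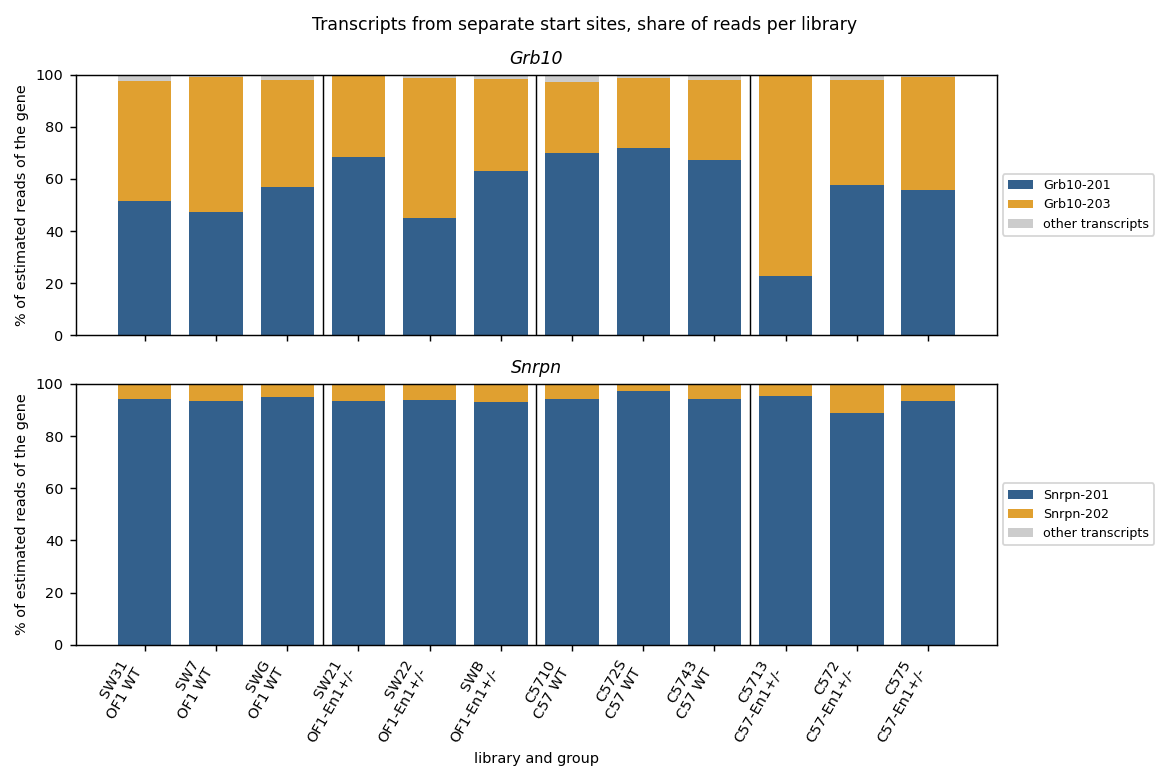
The y axis gives the percentage of the estimated reads of the gene and each bar is a library, ordered by group; colours mark the transcript from each start site. Grb10-201 takes 67.3 to 71.8% in the 3 C57 WT libraries and 22.8% in C5713, whereas Snrpn-201 takes 89.0 to 97.1% in every library.

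Of the remaining genes, *Ndn*, *Peg3* and *Plagl1* kept to 1 main transcript and *H19* had too few reads. *Ndn* has 1 transcript in the files, Peg3-201 took 98.7 to 99.9% of *Peg3* reads and Plagl1-202 took 85.6 to 100% of *Plagl1* reads. Dlk1-205 took 48.8 to 100% of *Dlk1* reads. For *Igf2*, Igf2-207, which has no annotated coding sequence, took 0 to 85.0% with a median of 67.3%, and the coding transcript Igf2-201 took a median of 27.6%.

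*Grb10* and *Igf2* act through the insulin and IGF receptors, and 15 of 16 listed genes of that axis were tested. With edgeR 0 passed the threshold in any of the 7 comparisons. At an unadjusted p under 0.05 there were 2 genes between OF1-En1+/- and OF1 WT, 0 between C57-En1+/- and C57 WT, 1 in each comparison of the strains and 2 for the interaction. Of all genes tested, 9.07% and 8.72% had such a p in the comparisons within OF1 and C57, 8.1 to 8.7% in those of the strains and 7.17% for the interaction. DESeq2 called *Pappa*, a protease that frees IGF from its binding proteins, at 0.0734 to 0.863 CPM in OF1 WT and 3.72 to 24.4 CPM in OF1-En1+/- mice (log2 fold change 4.56 by edgeR with an adjusted p of 0.453, and an adjusted p of 0.0055 by DESeq2). In C57 WT mice *Pappa* was at 1.41 to 31.9 CPM and in C57-En1+/- mice at 0.693 to 9.46 CPM. Of all genes tested, DESeq2 called 1.14% within OF1, 2.49% between the WT strains and 0.239% for the interaction. The fold change between OF1 WT and C57 WT was -4.34 (adjusted p = 0.297 by edgeR and 0.00294 by DESeq2) and -2.52 without SW22 and C572S, and the interaction was -6.09 (adjusted p = 0.658 by edgeR and 0.0292 by DESeq2) and -4.24 without them.

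Of the 44 other imprinted genes, 43 were found in the annotation and 39 were tested, and 0 passed the threshold by edgeR in any comparison. The median log2 fold change was -0.23 in OF1 (28 of 39 estimates lower in hemizygous mice) and 0.04 in C57 (17 of 39 lower), beside -0.01 and 0.00286 over all genes. At an unadjusted p under 0.05 there were 7 and 5 of 39, beside 9.07% and 8.72% of all genes tested. DESeq2 called *Mkrn3* alone, in C57 mice and over both strains, where it called 0.388% and 1.37% of all genes tested. Of the paralogs of the 10 genes, 9 of 10 were tested and 0 passed by edgeR or DESeq2, with 2 at an unadjusted p under 0.05 in OF1 and 0 in C57 mice, beside the same 9.07% and 8.72% of all genes.

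Some pairs of the 10 genes varied together over the 12 libraries, which share tissue, kit and depth, and are given as a description. Pearson's r of log2 CPM was 0.866 between *Peg3* and *Grb10* and 0.897 without SW22 and C572S. It was 0.628 between *Grb10* and *Plagl1* and 0.527 without these libraries. Between *Dlk1* and *Igf2* it was 0.699 and 0.894 without them. For *Cdkn1c* and *H19* it was 0.678 and 0.71 without them. *H19* had reads in only 7 of 12 libraries, so values of r with it rest on few reads. *Snrpn* ran opposite to *Grb10* (-0.654, and -0.56 without SW22 and C572S) and to *Plagl1* (-0.622, and -0.532 without them). The neighbours *Snrpn* and *Ndn*, *Dlk1* and *Meg3*, and *Igf2* and *H19* were not among the pairs beyond 0.5 in either direction.

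Among 14786 genes, the most alike over the 12 libraries were sought for each of the 10 genes with enough reads. *Snrpn* was most like *AI837181* (r = 0.942), *Mrpl12* (0.928) and its paralog *Snrpb* (0.897), and *Ndn* was most like *Mpg* (0.925). *Peg3* was most like *Cibar2* (0.978), the highest value among the 9 genes searched (*H19* was left out for its low counts), and *Meg3* most like the noncoding RNA *Miat* (0.915). *Igf2* was most like *S100a6* (0.938), *Dlk1* most like *Galk2* (0.937), *Grb10* most like *Fam167a* (0.926), *Plagl1* most like *Anapc2* (0.894) and *Cdkn1c* most like *Rhou* (0.886). The largest of so many values over 12 libraries is high by selection.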

How the data were processed

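RNA was measured in laser-captured SNpc of 12 mice, 3 in each of 4 groups, with SMART-Seq v4 and Nextera XT libraries, which do not mark strand. The authors mapped reads to GENCODE transcripts of GRCm39 with Salmon and deposited, for each library, the estimated count of reads per transcript and TPM. GRCm39 is the C57BL/6J sequence, and its effect on OF1 reads was not tested. Here the estimated counts were summed per gene with GENCODE M39 (99.1% of transcripts matched), rounded, scaled by TMM and tested with edgeR 4.0.16 (robust quasi-likelihood, 1 mean per group, all 12 libraries, R 4.3.3) where the mean normalized count reached 10. P-values were adjusted by Benjamini-Hochberg over 18831 genes at a threshold of 0.05, and intervals are 95%. CPM values are TMM-scaled. DESeq2 1.42.0, limma 3.58.1 (voom), other scalings and filters, and omitted libraries were alternatives. Likeness was Pearson's r of log2 CPM (prior count 2) over genes whose normalized counts averaged 50 or more. On simulated data for the OF1 comparison (18335 genes), edgeR recovered 9.09, 48.4 and 56.7% of genes changed by 1, 2 and 3 on the log2 scale. The 10 genes and all lists were chosen with earlier results of these data known, and the sequence motifs and the comparison of leading transcripts over all genes were added after the values were seen. Genes named outside the 10 came from members of the lists past the threshold or among the 3 with the smallest p of a comparison, and from relatives and neighbours of the 10; which of them are printed was decided after their values were seen. No pair of libraries within a group agreed within sampling noise. The labels give separate mice but no litters or batches. A share of 0 reads allows 3 reads, which covers counting error only.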

Additional observations from a re-analysis of the deposited data

How the results depend on the processing

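For the 9 genes other than *H19* in the 7 comparisons (63 values), 0 were called under any alternative, and direction turned in 18 of 540 values under other settings, 11 of them without SW22 and C572S, and in 52 of 756 values with 1 library left out. The fold changes printed in the report were settled after these reversals were known, and the cause was not tested for any of them. Without SW22 and C572S the log2 fold change in OF1 mice turned to -0.49 for *Dlk1*, -0.86 for *Plagl1* and -0.02 for *Meg3*, and the interaction of *Dlk1* to 0.26. The median of the 9 genes in OF1, a summary chosen after seeing the data, turned to -0.36 without them and ran from -0.35 to 0.22 with 1 library left out. With voom it turned to -0.17 for *Plagl1* in OF1 and -0.10 for *Cdkn1c* in C57. With 1 library left out, values in OF1 ran from -0.56 to 0.91 for *Cdkn1c*, -0.48 to 7.19 for *Dlk1*, -1.03 to 0.01 for *Grb10*, -0.03 to 2.31 for *Igf2*, -0.20 to 0.29 for *Meg3*, -0.62 to 0.04 for *Ndn*, -0.85 to 0.57 for *Plagl1* and -0.03 to 0.22 for *Snrpn*. In C57 they ran from -0.77 to 0.39 for *Meg3* and -0.63 to 0.14 for *Ndn*, and between strains from -2.57 to 0.28 for *Dlk1* and -0.21 to 0.09 for *Peg3*. The median share of Grb10-201 was 57.2% of reads and 43.3% of TPM. Over all genes, edgeR called 0, 0, 185, 169, 0, 0 and 374 in the 7 comparisons in the order of the report, and DESeq2 214, 73, 468, 456, 45, 258 and 696. At an unadjusted p under 0.05 edgeR had 1708, 1643, 1617, 1526, 1351, 2095 and 1638 genes. Without SW22 and C572S edgeR called 1 gene in the first, 105 in the third, 107 in the fourth and 1 in the sixth comparison, and fits of only the groups compared called 112 in the third and 106 in the fourth. Without SW22 alone the fourth gave 112. No paired analysis was possible because the labels give no replicate numbers shared between groups. With 3 mice per group and the low simulated recovery at a log2 change of 1, moderate differences could be missed.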
